A study of Mus musculus with 16 samples.

Results

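The genes of glucose uptake and glycolysis were followed in the thoracic mammary gland of female FVB/N mice homozygous for SV40 large T antigen. Their 10 members were Slc2a1, Slc2a4, Hk1, Hk2, Pfkl, Pfkm, Pfkp, Aldoa, Eno1 and Ldha, chosen by name, with every probe set that the platform's gene table gives to that symbol alone. This found 21 probe sets of 9 genes among 45101 probe sets in all, which cover 18193 genes. Eno1 had 0 probe sets of that symbol alone and was not analysed here, and 1 probe set that shares Hk1 with other symbols was left out. Where a gene has several probe sets, the one with the highest mean over the arrays is called its leading probe set.

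The study held 4 groups of 4 arrays each: mice isolated in single cages and taken at 20 weeks of age, mice grouped with other females and taken at 20 weeks, isolated mice taken at 15 weeks, and grouped mice taken at 15 weeks. It asked how chronic social isolation bears on gene expression in the gland as tumours arise. Every mouse of every group carried the transgene, whose C3(1) fragment of a rat prostatic steroid binding protein promoter is active in mammary epithelium, so no gland without T antigen was compared. All mice were killed in estrus at a fixed hour of the dark phase. Each array measured total RNA of a whole gland, in which epithelium, fat, stroma, blood cells and adjoining skeletal muscle are mixed, so that fewer cells of a type and less RNA per cell cannot be told apart. Arrays carry replicate numbers in the labels, but nothing there states that each came from another animal; the spread behind every p-value may thus be partly technical.

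Glucose enters cells through facilitative transporters of the Slc2a family, is trapped as glucose 6-phosphate by hexokinases, is committed to glycolysis by phosphofructokinase, is split by aldolase, and ends as pyruvate or, through lactate dehydrogenase, as lactate. Slc2a1 encodes GLUT1, the transporter of basal uptake in most proliferating cells, whereas Slc2a4 encodes GLUT4, the insulin-responsive transporter of fat and muscle. Tumour cells are known for high glucose uptake and lactate output, and in the mammary gland glucose is also the substrate of lactose and of fat made in epithelium and adipocytes. The hypoxia-inducible factor (HIF), a transcription factor stabilised at low oxygen, is known to bind the core ACGTG or GCGTG and to induce several of these genes.

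The promoter sequence just upstream of the transcription start was therefore read for the members from RefSeq annotation of GRCm38.p6, which holds 18 windows of 250 bases for 9 members, all except Slc2a4. Windows of 4 genes are shown: Slc2a1, which rose with age, Hk2 and Pfkl, which fell with age in isolated mice, and Ldha, which passed no test in the main fits. Sequences run 5′ to 3′ on the gene's strand, and capitals mark ACGTG or GCGTG on either strand (CACGT or CACGC on the other strand).
Slc2a1 promoter, chr4:119108495-119108744, + strand: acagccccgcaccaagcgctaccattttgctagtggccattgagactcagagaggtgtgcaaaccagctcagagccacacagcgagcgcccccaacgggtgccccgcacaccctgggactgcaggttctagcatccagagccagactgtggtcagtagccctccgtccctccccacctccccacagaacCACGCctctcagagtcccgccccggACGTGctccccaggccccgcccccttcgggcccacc
Hk2 promoter, chr6:82774455-82774704, - strand: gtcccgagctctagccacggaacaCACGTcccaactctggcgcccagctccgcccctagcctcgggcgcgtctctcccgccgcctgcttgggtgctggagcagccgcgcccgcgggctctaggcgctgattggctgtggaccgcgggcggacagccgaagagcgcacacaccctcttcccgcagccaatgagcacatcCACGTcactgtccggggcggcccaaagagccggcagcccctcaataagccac
Pfkl promoter, chr10:78009808-78010057, - strand: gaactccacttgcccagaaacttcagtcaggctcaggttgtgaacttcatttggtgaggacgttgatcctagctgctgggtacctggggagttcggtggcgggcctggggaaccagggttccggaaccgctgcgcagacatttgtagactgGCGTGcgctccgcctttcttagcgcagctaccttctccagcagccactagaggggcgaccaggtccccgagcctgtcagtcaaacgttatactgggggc
Ldha promoter, chr7:46845554-46845803, + strand: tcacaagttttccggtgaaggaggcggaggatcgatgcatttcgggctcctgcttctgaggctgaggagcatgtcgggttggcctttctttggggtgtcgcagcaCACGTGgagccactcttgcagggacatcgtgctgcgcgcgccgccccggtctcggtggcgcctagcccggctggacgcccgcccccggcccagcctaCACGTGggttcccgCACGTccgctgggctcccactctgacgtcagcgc
The Slc2a1, Hk2, Pfkl and Ldha windows held 2, 2, 1 and 5 matches, counted over both strands. The capitals of Ldha include 2 copies of CACGTG, an E-box that itself contains ACGTG on each strand, so each copy counts as 2 matches. Of the members' 18 windows, 15 held ACGTG or GCGTG on either strand, against 38.6% of all 32851 windows of that length. CACGTG stood in 2 of the 18, against 6.0% of all, and the GC box GGGCGG, on either strand, in 8 of the 18, against 32.7% of all. Several windows of a gene overlap, so they are not independent, and the arrays did not measure binding. Both genes that rose and genes that fell held the core.

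Values are log2 expression levels on which a difference of 1 is a factor of 2. They serve to compare arrays for a probe set and not to compare genes with each other. Array medians lay between 8.31 and 8.34 in the 20-week groups and between 8.09 and 8.11 in the 15-week groups, and lower quartiles between 6.98 and 7.04 and between 6.76 and 6.79. The arrays of each age thus had their own distribution of values, so that age and processing run cannot be told apart. No 2 arrays of a group held identical values (SD of the difference of a pair at least 0.115), which does not show that they came from different animals. The luminal epithelial markers (9 of 10 measured) averaged between 11.54 and 12.29 on every array, above the array medians. RNA integrity, read as the 3′ less the 5′ level of the Gapdh control, was between -0.06 and 0.01 in isolated 20-week arrays, between -0.04 and 0.02 in grouped 20-week arrays, between -0.03 and 0.02 in isolated 15-week arrays, and between -0.09 and -0.03 in grouped 15-week arrays.

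With age, GLUT1 and GLUT4 moved in opposite directions. Slc2a1 was 1.9-fold higher at 20 weeks than at 15 weeks in isolated mice and 1.92-fold higher in grouped mice, while Slc2a4 was 2.49-fold lower in isolated mice and 1.3-fold lower in grouped mice. Hk2, Pfkm and Aldoa fell with age in isolated mice, and Pfkl fell in both housings. The grouped calls of Slc2a1 and Pfkl were lost with the Gapdh control as a covariate for RNA integrity. In grouped mice that measure itself moved with age, at -0.06 ± 0.02 at 15 weeks and -0.01 ± 0.03 at 20 weeks (SD, n = 4 each). The covariate thus overlaps with age there, and this fit cannot separate them. With the actin control as the covariate the calls of both genes were kept. In the main fits Hk1 and Ldha passed in no comparison, though each passed in some alternative fits with age. Housing itself moved no member past an adjusted p of 0.05 at either age in the main fits.

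**Figure D1:**
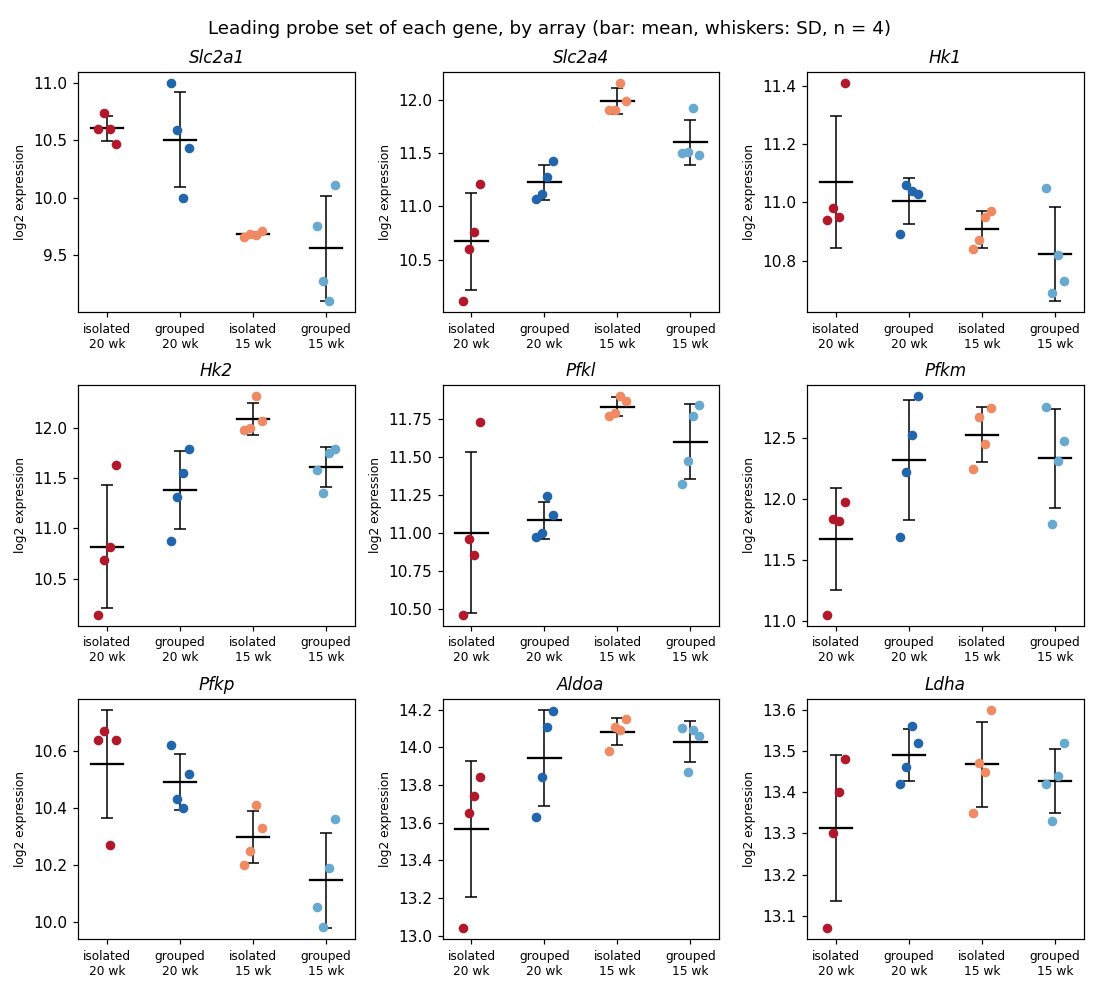
Log2 expression level (vertical axes) of the leading probe set of each of the 9 measured genes, 1 point per array, for isolated and grouped mice at 20 weeks and then at 15 weeks; bars are means and whiskers SDs of 4 arrays. Slc2a1 stands higher at 20 weeks in both housings, and the isolated 20-week group is the lowest of the 4 by its mean for Slc2a4, Hk2, Pfkl, Pfkm, Aldoa and Ldha.

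The first question was whether isolation changed the members at either age. At 20 weeks 0 of the 21 probe sets were called by limma with Benjamini-Hochberg adjustment over all 45037 probe sets tested, where 0.00888% of all probe sets were called. At an unadjusted p under 0.05, 0 were higher and 4 were lower in isolated mice, against 3.72% and 4.15% of all probe sets. These 4 were both probe sets of Slc2a4, that of Pfkm and 1 of Aldoa. The 21 differences had a median of -0.08 and 12 were negative, beside a median of -0.01 and 52.7% negative over all probe sets.

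At 15 weeks 0 of the 21 were called, again with 0.00888% of all probe sets called. At an unadjusted p under 0.05, 4 were higher and 0 lower in isolated mice, against 3.82% and 5.88% of all. These were both probe sets of Slc2a4, 1 of Hk1 and the single probe set of Hk2. The differences were positive for 20 of the 21 probe sets, beside 47.8% of all probe sets, with a median of 0.12 beside 0 over all. The Gapdh integrity measure moved with housing at this age, at -0.01 ± 0.02 in isolated and -0.06 ± 0.02 in grouped mice (SD, n = 4 each). With it as a covariate 15 of the 21 differences were positive, 0 had an unadjusted p under 0.05, and Hk1, Pfkm and Aldoa stood at -0.13, -0.14 and -0.05 by their leading probe sets. With the actin control as the covariate 7 of the 21 had an unadjusted p under 0.05 in limma, and 0 were called. Several probe sets report the same gene, and all come from the same 8 arrays, so that they are not independent of each other.

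**Figure D2:**
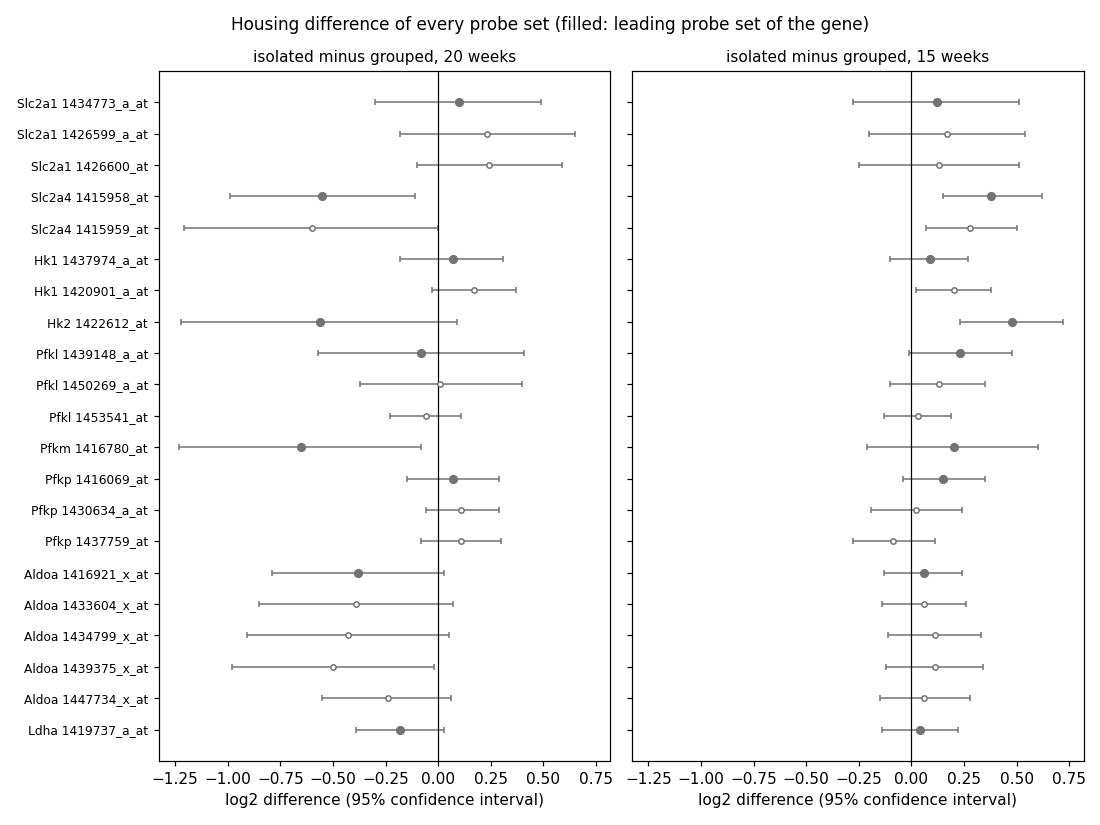
Isolated minus grouped difference of each of the 21 probe sets (log2, horizontal axes), at 20 weeks on the left and at 15 weeks on the right, with 95% confidence intervals; filled points are leading probe sets. At 20 weeks Slc2a4, Hk2, Pfkm and Aldoa lie left of 0 and at 15 weeks 20 of 21 points lie right of 0, and none passed the adjusted threshold.

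Among the transporters, Slc2a1 overlapped between the housings. Its leading probe set (1434773_a_at) read 10.6, 10.74, 10.6 and 10.47 in isolated and 11.0, 10.59, 10 and 10.43 in grouped mice at 20 weeks. At 15 weeks it read 9.66, 9.68, 9.67 and 9.71 in isolated and 9.75, 9.27, 9.1 and 10.11 in grouped mice. At both ages the isolated arrays lay inside the range of the grouped ones, with an SD of 0.02 in isolated and 0.46 in grouped mice at 15 weeks. The isolated minus grouped difference was 0.1 at 20 weeks (95% interval -0.3 to 0.49) and 0.12 at 15 weeks (-0.28 to 0.51).

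By age, Slc2a1 had the smallest adjusted p of the leading probe sets in isolated mice. All 4 isolated arrays at 20 weeks exceeded all 4 at 15 weeks, a difference of 0.92 ± 0.06 (SE; limma, adjusted p = 4.77e-06). In grouped mice the difference was 0.94 ± 0.24 (SE; adjusted p = 0.00703), with 1 array at 15 weeks (10.11) above the lowest at 20 weeks (10). The other 2 probe sets of Slc2a1 gave 1.15 and 1.03 in isolated and 1.09 and 0.91 in grouped mice, and followed the leading one with r = 0.95 over 16 arrays. With that Gapdh measure as a covariate, which itself moved with age in grouped mice, the grouped value was 0.75 ± 0.37 (SE) and no longer passed (adjusted p = 0.121). With the actin control as the covariate the grouped value was 1.05 and passed.

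Slc2a4 (1415958_at) went the other way with age and was ordered differently by housing at each age. At 20 weeks it read 10.11, 10.6, 10.76 and 11.21 in isolated mice, against 11.07, 11.12, 11.28 and 11.43 in grouped mice. The 15-week arrays read 11.9, 11.9, 12.16 and 11.99 in isolated mice, against 11.5, 11.51, 11.92 and 11.48 in grouped mice. Isolated mice were mostly below grouped mice at 20 weeks and mostly above them at 15 weeks, with an overlap of 1 array at each age. The differences were -0.55 ± 0.2 at 20 weeks (SE; adjusted p = 0.602) and 0.38 ± 0.11 at 15 weeks (adjusted p = 0.371).

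The age difference of Slc2a4 passed in both housings and without overlap of the ages. It was -1.31 ± 0.19 in isolated mice (SE; adjusted p = 0.000173) and -0.38 ± 0.12 in grouped mice (adjusted p = 0.0174). The second probe set gave -1.41 and -0.52. The grouped call was lost without grouped 20-week array 1 (-0.33, adjusted p = 0.0519) or array 2 (-0.35, adjusted p = 0.0511).

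Hexokinases carry out the first step after uptake. Hk1, the broadly expressed form (1437974_a_at), read 10.94, 10.98, 10.95 and 11.41 in isolated and 10.89, 11.06, 11.04 and 11.03 in grouped mice at 20 weeks. At 15 weeks it read 10.84, 10.87, 10.95 and 10.97 in isolated and 11.05, 10.69, 10.82 and 10.73 in grouped mice. The 4 groups overlapped throughout, apart from array 4 of the isolated 20-week group, which was the highest of all 16. Its housing differences were 0.07 (95% interval -0.18 to 0.31) at 20 weeks and 0.09 (-0.1 to 0.27) at 15 weeks. The second Hk1 probe set was higher in isolated mice by 0.19 over both ages (unadjusted p = 0.00962 and adjusted p = 0.657 in limma), the only 1 of the 21 below 0.05 unadjusted there, beside 3.5% of all probe sets in that direction, and 0 were called over both ages, where 0.00222% of all probe sets were.

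Hk2 (1422612_at), the inducible form of muscle, fat and many tumours, gave the lowest p of the members for housing at 15 weeks. It read 10.14, 10.69, 10.82 and 11.63 in isolated mice and 10.88, 11.31, 11.55 and 11.79 in grouped mice at 20 weeks. The 15-week arrays read 11.98, 12.0, 12.32 and 12.07 in isolated mice and 11.58, 11.35, 11.75 and 11.79 in grouped mice. At 15 weeks every isolated array was above every grouped one, the only such case among the 21 probe sets, beside 2.22% of all probe sets. The difference there was 0.48 ± 0.11 (SE), or 1.39-fold, with an unadjusted p of 0.00127 and an adjusted p of 0.282 in limma.

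At 20 weeks the Hk2 difference was -0.56 ± 0.29 (SE; adjusted p = 0.66), and the groups overlapped. With age Hk2 fell by 1.28 in isolated mice (SE 0.25, adjusted p = 0.00121), where all arrays at 20 weeks were below all at 15 weeks. In grouped mice the difference was -0.24 ± 0.18 (adjusted p = 0.262). For housing at 15 weeks, Hk2 stood at 0.6 and passed with array weights estimated by limma (adjusted p = 0.0428). Those weights raised the calls over all probe sets from 4 to 205. With the Gapdh covariate Hk2 stood at 0.25 and did not pass.

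Phosphofructokinase is a tetramer of liver (Pfkl), muscle (Pfkm) and platelet (Pfkp) type subunits. Pfkl (1439148_a_at) read 10.46, 10.96, 10.85 and 11.73 in isolated and 10.97, 11.0, 11.24 and 11.12 in grouped mice at 20 weeks. At 15 weeks it read 11.77, 11.79, 11.9 and 11.87 in isolated and 11.32, 11.47, 11.77 and 11.84 in grouped mice. The 20-week arrays lay below the 15-week arrays in each housing, array 4 of the isolated group being the nearest. The age difference was -0.83 ± 0.21 in isolated mice (SE; adjusted p = 0.0058) and -0.52 ± 0.12 in grouped mice (adjusted p = 0.00417), whereas those of housing were -0.08 at 20 weeks and 0.23 at 15 weeks (adjusted p = 0.935 and 0.528). With the Gapdh covariate the grouped age difference was -0.42 ± 0.18 (SE) and no longer passed (adjusted p = 0.0854). With the actin covariate it was -0.58 and passed.

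The third probe set of Pfkl did not follow the leading one (r = -0.04 over 16 arrays) and differed by -0.07 and 0.03 with age, so the fall is that of the other 2 probe sets.

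Pfkm (1416780_at), the subunit of skeletal muscle, read 11.05, 11.83, 11.82 and 11.97 in isolated and 11.69, 12.22, 12.52 and 12.84 in grouped mice at 20 weeks. The 15-week arrays read 12.24, 12.67, 12.45 and 12.74 in isolated and 12.75, 11.79, 12.31 and 12.47 in grouped mice. At 20 weeks 3 of 4 grouped arrays were above every isolated array, and at 15 weeks the housings overlapped. The housing difference was -0.65 ± 0.26 at 20 weeks (SE; unadjusted p = 0.0303 and adjusted p = 0.618 in limma), the largest in size at that age, and 0.2 ± 0.18 at 15 weeks. With age Pfkm fell by 0.86 in isolated mice (SE 0.19, adjusted p = 0.00245) without overlap, and the difference was -0.01 ± 0.25 in grouped mice.

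Pfkp (1416069_at), the subunit prominent in many proliferating cells, read 10.64, 10.67, 10.27 and 10.64 in isolated and 10.62, 10.43, 10.4 and 10.52 in grouped mice at 20 weeks. At 15 weeks it read 10.2, 10.25, 10.41 and 10.33 in isolated and 10.05, 9.98, 10.19 and 10.36 in grouped mice. The housings overlapped at both ages. Its age difference of 0.26 in isolated mice (adjusted p = 0.0314) and 0.35 in grouped mice (adjusted p = 0.00841) was close to the shift of 0.24 that the median of all probe sets showed. Relative to that shift it was 0.02 and 0.11, and it turned to -0.04 and -0.08 in isolated mice after quantile or loess normalization over both ages, so no direction is given for it. Another Pfkp probe set differed by 0.79 in isolated and 0.59 in grouped mice (adjusted p = 4.19e-05 and 0.000341), and the third by 0.04 and -0.05, so the 3 disagree. The one with 0.79 and 0.59 was dim, its group means of 7.39 to 8.18 lying below the array medians of the same age. Net of the shift it stood at 0.55 and 0.36.

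Aldoa (1416921_x_at), the muscle-type aldolase that most tissues also express, read 13.04, 13.65, 13.74 and 13.84 in isolated and 13.63, 13.84, 14.11 and 14.19 in grouped mice at 20 weeks. The 15-week arrays read 13.98, 14.11, 14.09 and 14.15 in isolated and 14.1, 13.87, 14.09 and 14.06 in grouped mice. Isolated arrays at 20 weeks were mostly the lower, and the 15-week arrays of both housings overlapped. The housing difference was -0.38 ± 0.18 at 20 weeks (SE; adjusted p = 0.653) and 0.06 ± 0.08 at 15 weeks. With age Aldoa fell by 0.52 in isolated mice (SE 0.15, adjusted p = 0.0116), and the difference was -0.09 ± 0.13 in grouped mice. Its 5 probe sets end in a suffix by which the maker marks probes that may match other transcripts, and 4 of the 5 passed in isolated mice.

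Ldha (1419737_a_at), the lactate dehydrogenase subunit associated with lactate production, read 13.07, 13.3, 13.4 and 13.48 in isolated and 13.42, 13.46, 13.56 and 13.52 in grouped mice at 20 weeks. At 15 weeks it read 13.35, 13.47, 13.45 and 13.6 in isolated and 13.42, 13.33, 13.44 and 13.52 in grouped mice. The ranges overlapped in each pair of groups. Housing differences were -0.18 (95% interval -0.39 to 0.03) at 20 weeks and 0.04 (-0.14 to 0.22) at 15 weeks, and age differences -0.15 in isolated and 0.06 in grouped mice. The isolated age difference passed after quantile normalization (-0.25, adjusted p = 0.00601), loess (-0.44, adjusted p = 0.00087) or with the actin control as a covariate (-0.23, adjusted p = 0.0322).

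Counted together, 15 of the 21 probe sets passed with age in isolated mice, 5 higher and 10 lower, where 67.5% of all probe sets passed, 59.4% higher and 8.17% lower. In grouped mice 9 passed, 5 higher and 4 lower, where 63.7% of all passed, 58% higher and 5.7% lower. The ages did not overlap for 9 lower probe sets in isolated and 4 in grouped mice, beside 6.49% and 4.33% of all. The median of all probe sets was 0.24 higher at 20 weeks in each housing, and the members' median was -0.2 in isolated and -0.01 in grouped mice. Net of the shift, the leading probe sets of Slc2a1, Slc2a4, Hk2, Pfkl, Pfkm and Aldoa stood at 0.68, -1.56, -1.52, -1.07, -1.1 and -0.76 in isolated mice.

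The split of calls depends on the scaling of the ages. After quantile normalization of the 8 arrays of a fit, 18 of the 21 passed in isolated mice, 4 higher and 14 lower, with 11807 of 22385 calls over all probe sets higher, against 26738 of 30419 on the deposited values. Cyclic loess also gave 18, 4 higher and 14 lower, with 10815 of 22236 higher. In grouped mice both scalings gave 9, 4 higher and 5 lower, with 8872 of 17156 and 8493 of 17282 calls higher, against 26130 of 28698 on the deposited values. Under both, the directions of Slc2a1, Slc2a4, Hk2, Pfkl, Pfkm and Aldoa in isolated mice were as given above.

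**Figure D3:**
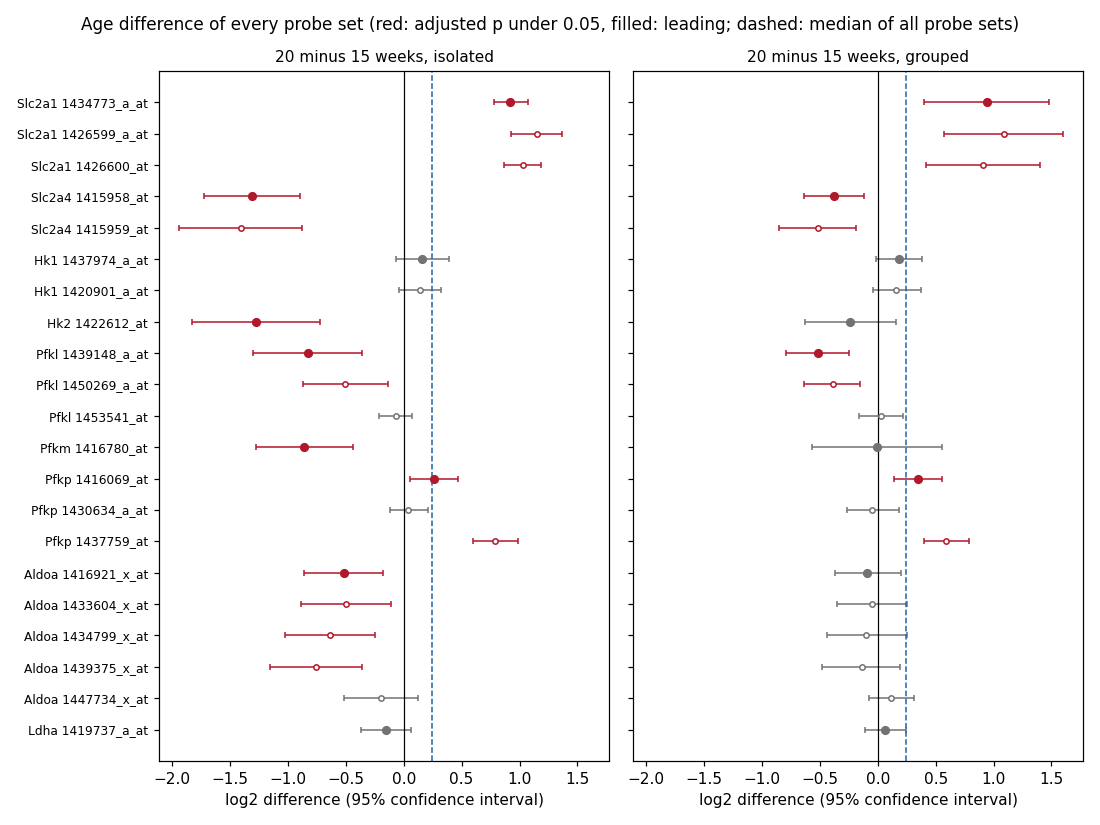
The 20-week minus 15-week difference of each of the 21 probe sets (log2, horizontal axes), in isolated mice on the left and grouped mice on the right, with 95% confidence intervals; red marks an adjusted p under 0.05, filled points are leading probe sets, and the dashed line is the median of all probe sets (0.24). Slc2a1 lies right of the line in both housings, and Slc2a4, Hk2, Pfkl, Pfkm and Aldoa lie further left in isolated than in grouped mice.

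Whether the housing difference itself changed between the ages was tested by the interaction over all 16 arrays, the isolated minus grouped difference at 20 weeks less that at 15 weeks. Of the 21 probe sets 0 were called, beside 0.00666% of all, and 6 were lower at an unadjusted p under 0.05, beside 4.79% of all. The interaction was negative for 17 of 21, beside 52.8% of all, with a median of -0.22 beside -0.01. It was -1.04 ± 0.34 for Hk2 (SE; adjusted p = 0.264), -0.93 ± 0.24 for Slc2a4 (adjusted p = 0.189) and -0.85 ± 0.35 for Pfkm (adjusted p = 0.356). The age differences of isolated and grouped mice were thus not shown to differ for these genes. In the same test 15 of 15 skeletal muscle markers were negative (median -0.63, 0 called, 9 at an unadjusted p under 0.05 in limma), as were 10 of 10 white adipocyte markers (median -0.67, 0 called, 4 at an unadjusted p under 0.05), and their part in the members' values was not tested.

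The interaction calls differed with array 4 of the isolated 20-week group. It read 11.21 for Slc2a4, 11.63 for Hk2 and 11.73 for Pfkl, each the highest of its group. Its marker means were also the highest of the group for white adipocytes (12.02, the others between 10.69 and 11.27), brown adipocytes (12.12, the others between 9.17 and 11.42) and endothelium (9.69, the others between 8.64 and 9.18). So was its luminal epithelial mean (12.21, the others between 11.88 and 12.02). Its skeletal muscle mean was not (13.02, the others between 12.25 and 13.16), nor were those of macrophages, lymphocytes, basal epithelium and proliferation. The part of these cells in its values was not tested. Without it the interaction passed for 3 of the 21 probe sets, both of Slc2a4 (-1.11 for the leading one, adjusted p = 0.0263) and that of Hk2 (-1.31, adjusted p = 0.0448). With all arrays kept and weighted, that of Slc2a4 passed as well (-0.94, adjusted p = 0.0324). The weights also raised the interaction calls over all probe sets from 3 to 563. Without array 4, housing at 20 weeks was -0.73 for Slc2a4 and -0.83 for Hk2 (adjusted p = 0.119 and 0.221). In that fit 0 of the 21 were called, and 192 of all probe sets, against 4 with every array. Without array 1 of the same group, the lowest for these genes, it was -0.36 for Slc2a4, -0.34 for Hk2 and -0.2 for Aldoa.

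The other genes of the pathway, a list of further transporters, isoenzymes, regulators and lactate carriers, were measured for 24 of 29 by 1 probe set each. For housing 0 of 24 passed at either age. At 20 weeks 1 was higher and 3 were lower at an unadjusted p under 0.05 in limma, and the smallest p were those of Eno2, the neuronal enolase (0.42, adjusted p = 0.556), Tpi1, triosephosphate isomerase (-0.17, adjusted p = 0.61), and Eno3, the muscle enolase (-0.54, adjusted p = 0.623). At 15 weeks 3 were higher and 0 lower, namely Slc2a5, a fructose transporter (0.43, adjusted p = 0.268), Slc2a2 (0.21, adjusted p = 0.371) and Slc16a1, the lactate carrier MCT1 (0.26, adjusted p = 0.399). Over both ages 0 passed, and the smallest p were those of Slc2a2 (0.15, a probe set below the lower quartile of every array), Pfkfb3 (-0.49) and Slc2a5 (0.12).

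With age, 9 of the 24 rose and 9 fell in isolated mice, and 7 rose and 3 fell in grouped mice. Over all probe sets 59.4% rose and 8.17% fell in isolated mice, and 58% rose and 5.7% fell in grouped mice, so the share that rose was below that of the array. In isolated mice those that rose with the smallest p were Eno2 (1.33), the neuronal-type transporter Slc2a3 (0.44), Pfkfb4 (0.44) and Pfkfb2 (0.39), which set the phosphofructokinase activator fructose 2,6-bisphosphate, and Pklr (0.18). Those that fell with the smallest p were Slc2a2 (-0.25), whose group means of 6.05 to 6.38 lie below the lower quartile of every array, so that a level above background was not shown, Eno3 (-0.59), the lactate dehydrogenase subunit Ldhb (-1.33), the muscle mutase Pgam2 (-0.67) and Tigar (-0.47), and Slc16a1 and Pfkfb3 were among the rest. In grouped mice Eno2 (0.75), Aldoc (0.61), Pfkfb4 (0.57), Pfkfb2 (0.43) and Slc2a5 (0.4) rose, and Slc16a1 (-0.53), Ldhb (-0.47) and Pfkfb3 (-0.51) fell. Of these, Pklr rose by less than the median shift of all probe sets, at -0.06 net of it.

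The interaction passed for 0 of the 24, with 2 positive and 3 negative at an unadjusted p under 0.05 in limma. The smallest p were those of Slc2a5 (-0.63, adjusted p = 0.16), Eno2 (0.58, adjusted p = 0.214) and Slc2a3 (0.38, adjusted p = 0.356). Slc2a5 thus had a negative value as Hk2 and Slc2a4 did, and Eno2 and Slc2a3 positive ones.

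Markers of skeletal muscle and of fat moved with several members. The 15 skeletal muscle markers, all measured, averaged between 12.25 and 13.16 on isolated 20-week arrays, between 12.98 and 13.71 on grouped 20-week arrays, between 13.17 and 13.67 on isolated 15-week arrays, and between 12.97 and 13.44 on grouped 15-week arrays. For housing at 20 weeks 15 of 15 were lower in isolated mice, with a median of -0.53 and 0 called (9 at an unadjusted p under 0.05). At 15 weeks 15 of 15 were higher in isolated mice, with a median of 0.06 and 0 called (1 at an unadjusted p under 0.05), beside the members' 20 of 21. With age 11 of 15 fell in isolated mice, where 8.17% of all probe sets fell. In grouped mice 1 rose and 0 fell, where 58% of all rose and 5.7% fell.

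The white adipocyte markers, 10 of 12 measured, averaged between 10.69 and 12.02 on isolated 20-week arrays, between 11.88 and 12.2 on grouped 20-week arrays, between 12.45 and 12.69 on isolated 15-week arrays, and between 12.4 and 13 on grouped 15-week arrays. With age 10 of 10 fell in isolated mice (median -1.44) and 9 in grouped mice (median -0.63), beside 8.17% and 5.7% of all probe sets. For housing at 20 weeks 10 of 10 were lower in isolated mice (median -0.79) with 0 called, and at 15 weeks 7 of 10 were lower (median -0.07). Of the proliferation markers, 5 of 6 were measured and 5 rose with age in each housing, with a median of 0.94 in isolated and 0.82 in grouped mice. Over all probe sets 59.4% rose in isolated and 58% in grouped mice, with a median of 0.24 in each.

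Across the 16 arrays, after subtracting the mean of each age, the level of Pfkm followed the mean of the muscle markers with Pearson's r = 0.96 and Spearman's rho = 0.94, and with r = 0.93 without the 2 arrays farthest from the median of the marker mean. For Aldoa r was 0.95 (rho = 0.91, r = 0.87 without the 2 arrays) and for Ldha 0.9 (rho = 0.8, r = 0.79). Hk2 had r = 0.78 (rho = 0.64), and 0.52 without those arrays. With the brown and white adipocyte means Hk2 had r = 0.74 and 0.65 (0.47 and 0.36 without 2 arrays). These were 0.85 and 0.79 within the 20-week arrays, and -0.15 and -0.08 within the 15-week arrays. Ldha had r = 0.79 and 0.73 with the brown and white means (0.5 and 0.54 without 2 arrays). Its values were 0.91 and 0.84 within the 20-week arrays, and -0.05 and 0.17 within the 15-week arrays. Slc2a4 followed the white adipocyte mean with r = 0.77 (rho = 0.66), at 0.9 within the 20-week arrays, 0.25 within the 15-week arrays (8 each) and 0.59 without 2 arrays. It followed the muscle mean with r = 0.74 (0.4 without 2 arrays) and the brown adipocyte mean with r = 0.72 (0.41 without 2 arrays), so no list is singled out for it. The brown adipocyte mean also had r = 0.75 with Pfkl (0.26 without 2 arrays) and 0.83 with Aldoa (0.69 without 2 arrays). Both stood at 0.86 within the 20-week arrays, and at 0.12 and -0.16 within the 15-week arrays. Slc2a1 followed the proliferation mean with r = 0.74 (rho = 0.48, and r = 0.51 without 2 arrays). With the brown adipocyte mean Slc2a1 had r = -0.34 (rho = -0.69, and r = -0.73 without 2 arrays), so no list is singled out for it either. Both sides of each correlation come from the same array, these are descriptions over 16 arrays, and the part of muscle and fat content in the members' differences was not tested.

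**Figure D4:**
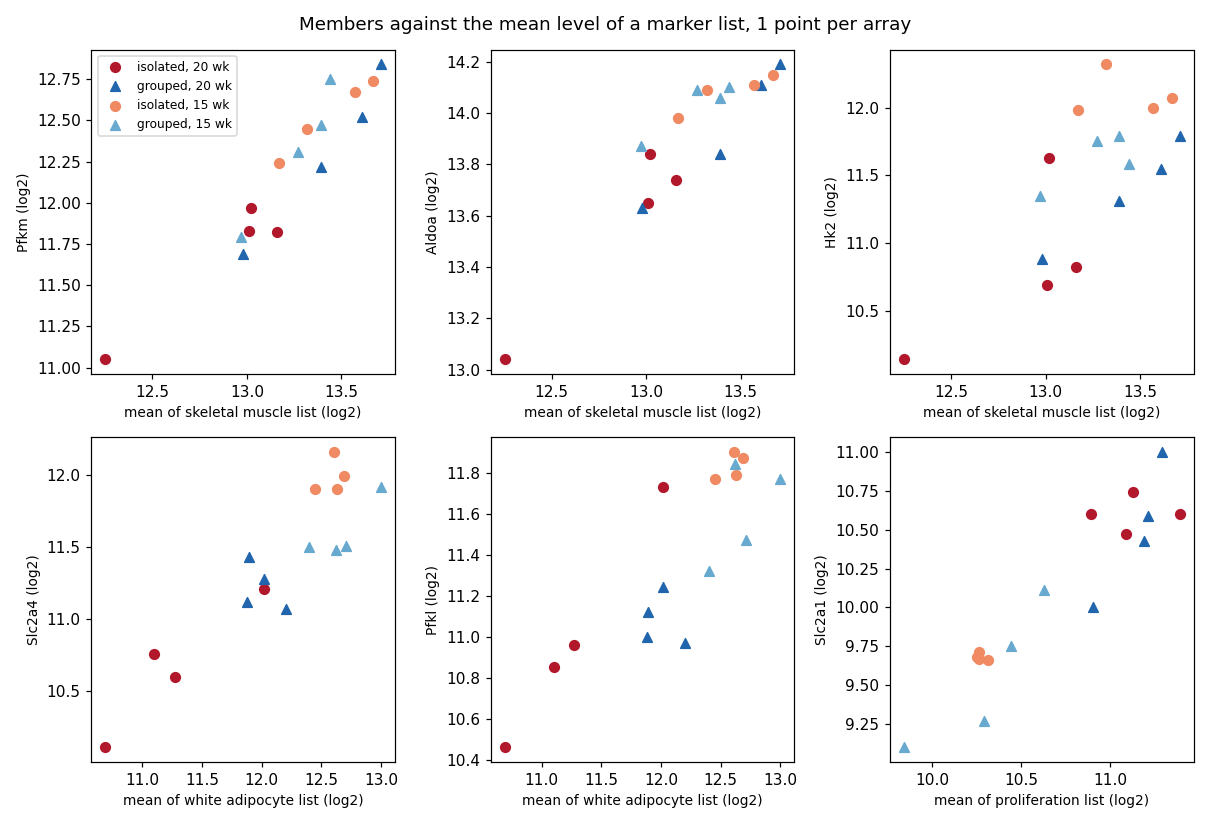
Level of a member (log2, vertical axes) against the mean level of a marker list on the same array (log2, horizontal axes), 1 point per array, circles for isolated and triangles for grouped mice. Pfkm and Aldoa rise along the skeletal muscle mean, and 3 of the 4 isolated 20-week arrays lie at the low end of the white adipocyte mean for Slc2a4 and Pfkl.

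The genes most like each member over the 16 arrays, after subtracting the mean of each age, were taken with 1 probe set per gene. For Pfkm they were Pygm, Atp2a1 and Adssl1 (Pearson's r = 0.99 each), and for Aldoa Ndrg2 (0.97), Trim63 (0.97) and Tnnt3 (0.96), among which Pygm, Atp2a1, Trim63 and Tnnt3 are genes of muscle fibres. For Slc2a4 they were Lpin1 (0.97), Cnst (0.96) and Tns1 (0.95), and for Hk2 Gpd2, Uqcc1 and Ddo (0.95 each). For Slc2a1 they were the keratin Krt17 (0.93), Trim29 (0.92) and Mif (0.91), and for Pfkl Plin2, a lipid droplet protein (0.94), Acsl5 (0.94) and Dhrs7 (0.93). Ldha was most like Slc25a3 (0.96), Tom1 (0.95) and 3000002C10Rik (0.95), Pfkp like Lnx2 (0.94), Hmg20b (0.85) and Gars (0.84), and Hk1 like Maml1 (0.92), Tm9sf4 (0.87) and Ep300 (0.87). Among the members themselves, Slc2a4 and Hk2 had r = 0.93, as had Pfkm and Aldoa, while Slc2a1 and Slc2a4 had r = -0.29.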

How the data were processed

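Total RNA of whole thoracic mammary gland was measured on 16 Affymetrix arrays, 4 for each of the 4 groups of housing and age. The authors deposited 1 log2 value per probe set and array, computed by RMA (affy), as the submitters' processing notes record without a version; that method corrects for background, brings arrays to a common distribution and summarises the probes of a probe set. The values of each age had a distribution of their own, so age and processing run, which no label records, cannot be told apart. Arrays carry no read depth, so their number limits the precision. Of the 45101 probe sets, 64 controls were left out and 45037 were tested, and the table had 0 missing values.

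Gene names came from the platform's annotation, in which 34945 probe sets had 1 symbol, 932 had several and 9160 were not listed; 34741 Entrez identifiers matched the RefSeq table of GRCm38.p6 and 0 symbols changed. The members were the named genes with all their probe sets. The members and all gene lists were chosen with earlier results of these data known. From the list of other pathway genes, up to 5 that passed in each direction were named by smallest p, or the 3 of smallest p where none passed, and up to 3 genes most like each member by Pearson's r. Where a sentence names Slc16a1 and Pfkfb3 beyond these for age in isolated mice, they were chosen after their values were seen.

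Every probe set was fitted with limma 3.58.1 under R 4.3.3, using lmFit and an eBayes prior that follows intensity, with p-values adjusted by Benjamini-Hochberg over all probe sets, with a threshold of 0.05 on the adjusted p. Housing and age comparisons used their own 8 arrays. Housing over both ages and the interaction used all 16 with 1 estimate of the spread. Spreads differed between the groups, for Hk2 from an SD of 0.16 in isolated 15-week to 0.62 in isolated 20-week arrays. The pooled estimate is thus an average that need not hold for a single group. The fits were tested on simulated data. Alternatives were quantile and cyclic loess normalization, a filter at the 40th percentile of mean level, 1 probe set per gene, an eBayes prior with no trend, a robust one, array weights (statmod 1.5.0), all 16 arrays in 1 fit, the replicate number as a block, the Gapdh or actin 3′ minus 5′ difference as a covariate, a threshold of 0.1, and each array left out in turn. Same-numbered arrays deviated together with r between -0.22 and 0.47, so the numbers were not taken to pair the arrays.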

Additional observations from a re-analysis of the deposited data

Results flagged for a closer look

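The 21 probe sets in 4 groups gave 84 sets of 4 arrays, and in 8 of them 1 array lay far from the other 3 by Dixon's test, which chance does in about 1 of 20 sets. In isolated 20-week mice, array 3 was low for the leading Pfkp probe set at 10.27, with the others between 10.64 and 10.67. Array 1 of that group was low for Pfkm at 11.05, with the others between 11.82 and 11.97. Array 4 of it was high for the leading Hk1 probe set at 11.41, with the others between 10.94 and 10.98. In grouped 20-week mice, array 1 was high for the third Pfkl probe set at 8.22, with the others at 7.99. In isolated 15-week mice, array 2 was high for the second Slc2a1 probe set at 9.18 and array 1 was low for the second Pfkl probe set at 11.16. In grouped 15-week mice, array 3 was high for the leading Slc2a4 probe set at 11.92, with the others between 11.48 and 11.51, and array 2 was low for 1 of the 5 Aldoa probe sets at 13.29, with the others at 13.62 or 13.63.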

How the results depend on the processing

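The housing counts at 20 weeks and over both ages stayed at 0 under every alternative run. At 15 weeks array weights called 1 probe set (Hk2), and for the interaction they called 1 (Slc2a4, -0.94, adjusted p = 0.0324). Over all probe sets the weights called 205 and 563, against 4 and 3 without them. Leaving out arrays gave 0 to 3 interaction calls, the 3 without isolated 20-week array 4, and 13 to 15 calls with age in isolated and 8 to 10 in grouped mice. With 1 probe set per gene, which tests 9 members, 7 were called with age in isolated and 4 in grouped mice. The Gapdh covariate, which itself moved with age in grouped mice, left 2 calls with age there, and Pfkl (-0.42, adjusted p = 0.0854) was among those lost. The actin covariate gave 11 there. Over all probe sets 19208 were called with the Gapdh and 26793 with the actin covariate, against 28698 with neither. Pfkp in isolated mice turned to -0.04 with quantile normalization and -0.08 with loess, and lost its call without any of 6 of the 8 arrays in turn (adjusted p up to 0.0873). In grouped mice Hk1 passed with array weights (adjusted p = 0.0337) and without grouped 15-week array 1 (0.26, adjusted p = 0.017), Hk2 passed with the actin covariate (-0.41, adjusted p = 0.0365), and Slc2a4 missed the threshold in the fit of all 16 arrays (adjusted p = 0.0583). The cause of these changes was not tested. With the replicate number as a block, counts were 0 for every housing comparison and the interaction, 15 for age in isolated mice and 9 for age in grouped mice, as without it; Hk2 had an adjusted p of 0.13 at 20 weeks and 0.114 at 15 weeks. With the filter on dim probe sets all 21 members stayed in and 0 were called for housing or the interaction.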

Other observations

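Markers of the other cells of the gland, described here by counts, moved in these comparisons as well. The 10 macrophage markers were all higher in isolated mice at 20 weeks (median 0.67, 0 called, 4 at an unadjusted p under 0.05 in limma) and all lower at 15 weeks (median -0.37, 0 called, 9 at an unadjusted p under 0.05). With age 6 of the 10 rose in isolated mice, where 59.4% of all probe sets rose. In grouped mice 0 of the 10 passed, where 63.7% of all passed, and 1 was lower at an unadjusted p under 0.05. The interaction was positive for all 10 macrophage markers (median 1.08, 0 called, 9 at an unadjusted p under 0.05). After subtracting the mean of each age, r between the mean of the macrophage markers and the level of a member on the same array was -0.33 for Slc2a4 and -0.28 for Hk2 over 16 arrays, at -0.88 and -0.85 within the 15-week arrays and -0.2 and -0.16 within the 20-week arrays (8 each).

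The counts with age that follow stand beside 59.4% of all probe sets that rose and 8.17% that fell in isolated mice. In grouped mice 58% of all rose and 5.7% fell. Of the luminal epithelial markers, 9 of 10 measured, 7 rose and 1 fell with age in isolated mice and 7 rose in grouped mice. Of the 6 basal epithelial markers, 3 rose and 2 fell with age in isolated mice and 4 rose in grouped mice. Slc2a1 followed the mean of the basal markers with r = 0.68 (rho = 0.46) over 16 arrays, at 0.27 within the 20-week arrays and 0.93 within the 15-week arrays. Of the 6 brown adipocyte markers, 4 fell and 1 rose with age in isolated mice and 5 fell in grouped mice. Of the 5 endothelial markers 3 fell with age in isolated mice and 0 passed in grouped mice, where 0 were at an unadjusted p under 0.05 in limma, and of the lymphocyte markers, 6 of 7 measured, 1 rose in isolated and 1 fell in grouped mice. For housing, 0 markers of these lists were called in limma at either age.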
